A study of Solanum tuberosum with 11 samples.

Results

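A set of 114 potato transcripts was at least 3-fold below the control in the condition named NG 5-Days and back above 0.5 of the control in NG 7-Days. They were selected on their levels in all 4 conditions of the deposited table, out of 35091 transcripts. The control level had to be at least 5, the NG 5-Days level at most 0.333 of it, the NG 7-Days level above 0.5 of it, and the NG 1-Day level above 0.25 of it. A control level of at least 5 was met by 11927 transcripts, so the 114 are 0.956% of those that could have qualified. Because the rule used every condition, the trough and the return describe how the set was chosen and are not findings. Adjusted p-values given for single members in these contrasts rest on the same levels and lend the pattern no support.

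The tissue was a thin disc of tuber skin (periderm) with the apical bud, from greenhouse minitubers of the cultivar Atlantic of Solanum tuberosum. Dormant tubers received 5 µl of dimethyl sulfoxide (DMSO), alone or with 10 µg of NG, which is 1-(alpha-ethylbenzyl)-3-nitroguanidine. The labels name 3 libraries from DMSO tubers at zero time, and 3, 2 and 3 libraries from NG tubers 1, 4 and 7 days later. No DMSO library of a later day is among them, so exposure to NG and the passing of time cannot be told apart. The deposited table has 1 level per condition and none per library. No label mentions a day 5, and the table's own name for that condition is kept. In a tissue disc, fewer cells of a type and less RNA per cell cannot be told apart either.

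In the text below, "control" means the table's Controls, and the "early", "trough" and "late" levels are those in NG 1-Day, NG 5-Days and NG 7-Days. The table names no unit for its levels; its layout usually holds a value per transcript length and library size, and an order of levels between transcripts rests on that. Standard errors come from the authors' deposited statistics and are errors of their model on the log2 scale, not a spread between libraries.

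A potato tuber passes through dormancy after harvest, when the meristems in its buds do not grow even where conditions would allow it. Abscisic acid is associated with keeping the bud at rest, and cytokinins, hormones that promote cell division, with its release. Some substituted nitroguanidines have been described as having cytokinin-like activity. The identifiers come without gene names, and none could be matched to the 32873 genes in the RefSeq table for SolTub_3.0 (matches: 0). No role can therefore be given to any of the 114 and no pathway list could be counted among them, and most are named by the chromosome and positions listed in the table.

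As a group the 114 were slightly above the control early and returned part of the way late. The median level was 18.7 in the control, 22.9 early, 4.01 in the trough and 15.8 late. Relative to the control, the median was 1.14 early, 0.251 in the trough and 0.667 late. Over all 11927 transcripts with a control level of at least 5 these medians were 0.991, 0.973 and 1.00. The trough was the lowest of the 4 levels for each of the 114, which the rule fixes against the control and the late level but not against the early one.

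**Figure D1:**
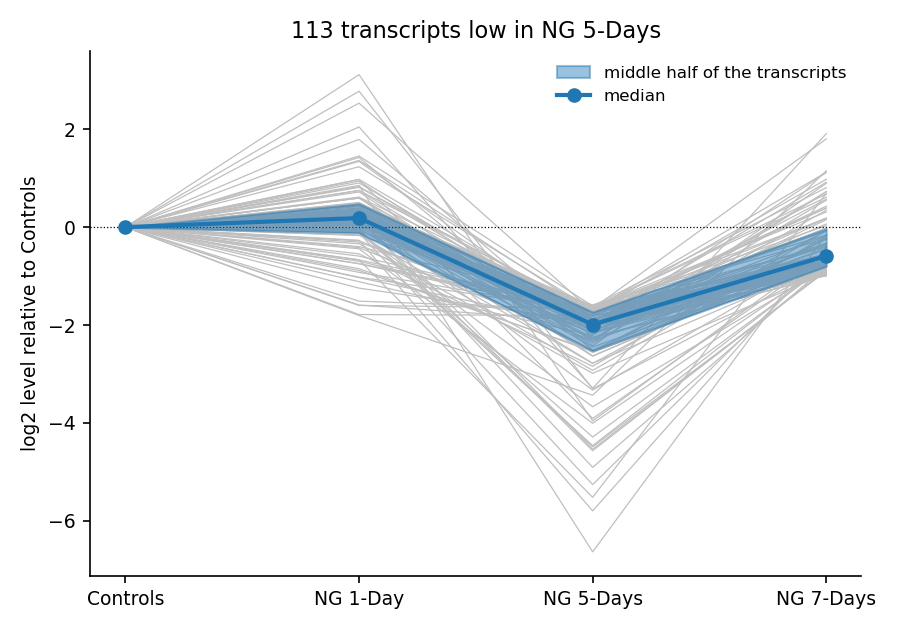
Log2 level relative to Controls (vertical axis) in the 4 conditions of the table (horizontal axis) for the 113 transcripts above 0 in NG 5-Days. Grey lines are single transcripts, the blue line is their median and the band spans their quartiles; every line is below Controls in NG 5-Days because the rule required it.

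Their summed level followed the same course. It was 11594 in the control, 13970 early, 2142 in the trough and 7255 late. Of the summed level of the whole table, without 5 transcripts marked as too abundant, this was 1.83% in the control and 0.349% in the trough. Set against the control sum, the early sum was 120% and the late sum 62.6%. Abundance within the set was uneven, with a control level under 10 for 38 transcripts, from 10 to under 100 for 53, and at 100 or more for 23.

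Depth of the trough and degree of return both varied. The trough level was above 0.25 of the control for 57 transcripts, from 0.1 to 0.25 for 40, and under 0.1 for 17, of which 1 was listed at 0. The late level was under 0.6 of the control for 41, from 0.6 up to the control for 45, and above the control for 28. Those 28 included 14 of the 38 least abundant transcripts and 1 of the 23 most abundant.

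The most abundant transcripts gave the largest absolute differences. The highest control level belonged to PGSC0003DMG400009513, at chromosome 3, 16206009 to 16206797, with 1384 in the control, 1563 early, 58.4 in the trough and 760 late. A neighbour at chromosome 3, 16174064 to 16174890, had 1109 in the control, 1387 early, 47.9 in the trough and 598 late. Both were near 0.04 of the control in the trough and a little above 0.5 of it late. Late against control, the log2 differences were -0.86 (standard error 1.01) and -0.89 (standard error 0.94). With errors of that size, their place above 0.5 of the control is uncertain. The authors' deposited table marks both as not tested between control and trough, where it lists log2 differences of -4.57 (standard error 0.44) and -4.53 (standard error 0.43).

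The other 3 of the 5 most abundant were reduced less. At chromosome 7, 2954789 to 2956318, the level was 1233 in the control, 1374 early, 179 in the trough and 728 late. At chromosome 3, 20471280 to 20471871, it was 1023, 1092, 264 and 514 in that order, and its late level was the closest of all 114 to the limit for inclusion. At chromosome 12, 53019560 to 53020199, it was 674, 803, 166 and 399. Together the 5 made up 46.8% of the set's summed level in the control and 33.4% in the trough.

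The deepest troughs were found over a wide range of abundance. Among the 8 lowest trough ratios above 0, PGSC0003DMG400011438 is the only transcript that ended above its control. It lies at chromosome 10, 43787803 to 43788901, and had 24.3 in the control, 15.3 early, 0.531 in the trough and 39.1 late. From early to trough it fell by 4.85 on the log2 scale per the authors' deposited table (standard error 0.62, adjusted p = 6.32e-13). Its late level was above the early one by 1.35 on that scale, also called in the authors' deposited table (standard error 0.38, adjusted p = 0.009).

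Chromosome 2 held 3 of those 8. At 31439457 to 31440805 the level was 22.9 in the control, 21.1 early, 0.599 in the trough and 15.2 late. At 31970235 to 31971642 it was 35.4, 29.4, 0.637 and 26.4, and at 31947077 to 31948614 it was 342, 322, 15.3 and 184. All 3 were within 1.5-fold of the control early, and none was tested in any comparison of the authors' deposited table. At chromosome 7, 263567 to 267734, the levels were 5.90, 6.73, 0.197 and 3.39. This transcript fell by 4.91 on the log2 scale from control to trough per the authors' deposited table (standard error 0.98, adjusted p = 3.61e-05). A pseudocount of 1 added to both levels, with errors from the authors' deposited table, gave a log2 difference of -2.53 (adjusted p = 0.00169).

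The lowest ratio above 0 and the level of 0 both came with an overlap. The transcript at chromosome 11, 40401815 to 40405806, had 19.0 in the control, 34.3 early, 0.192 in the trough and 17.1 late. Its log2 difference of -6.63 between control and trough carried a standard error of 11.8 and was not called in the authors' deposited table (adjusted p = 1.00). Another transcript with the same coordinates had 5.63 in the control and 9.85 in the trough. The transcript listed at 0 in the trough, at chromosome 2, 35492869 to 35497439, had 5.88 in the control, 8.05 early and 6.53 late. It too shares its coordinates, with a transcript at 2.11 in the control and 7.96 in the trough. How reads were divided at a shared locus is not stated in the labels or the table, so the levels of such pairs are uncertain. Of the 114, 5 share coordinates with another listed transcript, or 4.39%, against 7.91% of all transcripts with a control level of at least 5. Coordinates are listed per locus, and whether they are the ends of each transcript itself is not stated.

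The early level divided the set more than its median shows. It was above the control for 76 of the 114, within 1.5-fold of it for 72, over 2 times the control for 10 and under 0.5 of it for 9. The same counts were not made over all transcripts, so these are not shown to be unusual. Lower and upper quartiles of the early ratio were 0.924 and 1.39 in the 114. Over all transcripts with a control level of at least 5 they were 0.903 and 1.08. The 10 high ones had early levels between 21.8 and 680 and trough levels between 0.358 and 81.4. Their trough level was 0.00743 to 0.132 of the early level, a ratio that the rule and an early level over 2 times the control together keep low.

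The largest early excess over the control was that of PGSC0003DMG400017261, at chromosome 9, 47542989 to 47543392, with 85.4 in the control, 585 early, 8.66 in the trough and 48.8 late. The early difference, 2.78 on the log2 scale with a standard error of 0.54, is marked as not tested in the authors' deposited table. Its late level was called above the trough level, by 2.49 on the log2 scale, in the authors' deposited table (standard error 0.40, adjusted p = 4.08e-08). The rule already required a late level above the trough level. The highest early ratio was at chromosome 10, 27126736 to 27127645, with 5.56 in the control, 48.2 early, 0.358 in the trough and 3.98 late. At chromosome 2, 43105705 to 43106421, the corresponding levels were 7.29, 42.2, 2.21 and 5.65. Neither of these early differences was tested in the authors' deposited table.

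The 9 transcripts low early are described in the same way. Their early levels lay between 1.71 and 18.7 and their trough levels between 1.20 and 8.73. The trough level was 0.323 to 0.986 of the early level, and a low early level in itself makes this ratio high, so the ratios of both classes are not compared. All 9 were above the control late, at 1.35 to 3.49 times its level, whereas 1 of the 10 high ones was. A control level between the early and the late one was common in the table. It was seen for 66.7% of the 114 and 64.5% of all transcripts with a control level of at least 5. These shares pool both orders, and none was computed for all transcripts low early, so the course is not shown to be particular to members. With a control level of at least 5, another 30 transcripts were low in the trough and at most 0.25 of the control early. All 30 were above 0.5 of the control late, so that degree of return was not particular to members. How many of the 30 ended above the control was not counted. The high and low classes of members were drawn from the early level after the members were chosen, and no test was made between them.

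**Figure D2:**
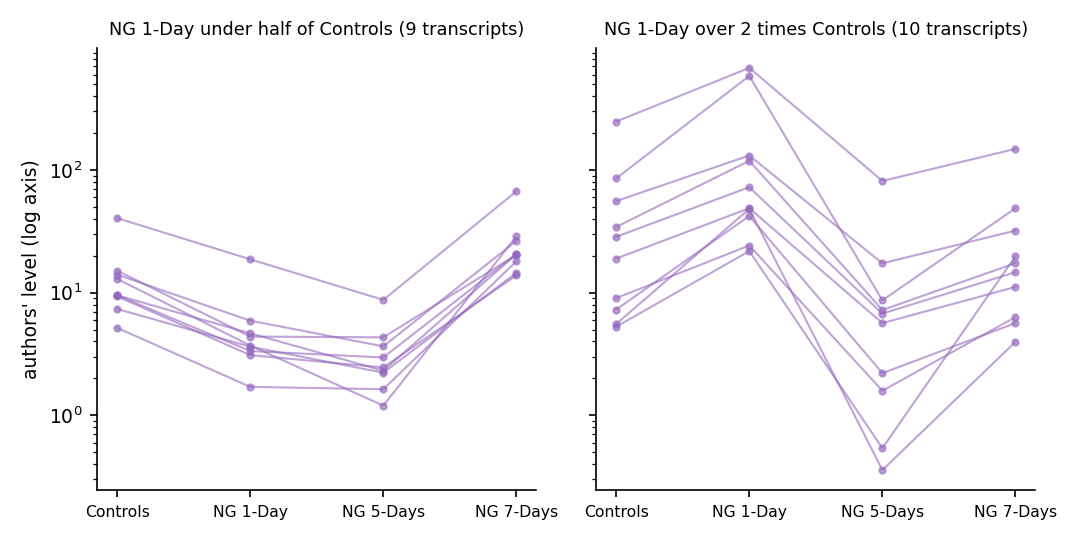
Level in each condition on a log axis, with 1 line per transcript. One panel holds the 9 transcripts under 0.5 of Controls in NG 1-Day, which end at 13.8 to 67.1 in NG 7-Days, and the other the 10 over 2 times Controls in NG 1-Day, which end at 3.98 to 149.

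Examples of transcripts low early are on chromosomes 3, 4, 6 and 8. At chromosome 3, 27787610 to 27788132, the level was 15.1 in the control, 4.39 early, 4.33 in the trough and 20.3 late. Early and trough levels were close there, with a log2 difference of -0.02 in the authors' deposited table (standard error 0.46, adjusted p = 1.00). At chromosome 8, 5091166 to 5093192, the levels were 9.33, 3.10, 2.46 and 13.8 in that order. Both rose from trough to late level, as the rule required of every member. The authors' deposited table gives 2.23 (standard error 0.41, adjusted p = 4.95e-06) and 2.49 (standard error 0.33, adjusted p = 5.95e-12) on the log2 scale. At chromosome 6, 51879101 to 51879948, a control level just under 13 was followed by 3.71, 1.20 and 28.8, and at chromosome 4, 47860982 to 47861926, one of 5.17 by 1.71, 1.63 and 18.0.

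The highest late ratio went with a high early one. PGSC0003DMG400001372, at chromosome 2, 43875575 to 43876565, had 5.28 in the control, 21.8 early, 0.540 in the trough and 19.8 late. Its early and late levels were 4.13 and 3.76 times the control. Between control and trough it fell by 3.29 on the log2 scale per the authors' deposited table (standard error 1.00, adjusted p = 0.0215), and its other comparisons were not tested. Adjusting this comparison by itself, from the p-values in the authors' deposited table, ended that call (adjusted p = 0.123). A pseudocount of 1 added to both levels, with errors from the authors' deposited table, ended it too (adjusted p = 0.0957). Next after it came the transcripts just named on chromosomes 4 and 6, and then a pair on chromosome 9 that was also low early. At 45729997 to 45730905 the levels were 9.54, 3.35, 2.96 and 20.7, and at 20760351 to 20766006 they were 9.52, 4.66, 2.31 and 20.6.

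Calls at an adjusted p under 0.05 are taken as the authors deposited them. Between control and trough, the authors' deposited table calls 45 of the 80 tested members lower, where 0.826% of all tested transcripts were called lower. The count was 27 when that comparison was adjusted alone. Between early and trough it calls 59 of 69 tested members lower, against 6.91% of all tested. Between trough and late it calls 41 of 63 higher, against 2.52%. The rule used these contrasts, and nothing is read from the shares.

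Calls of early or late levels against the control were few. Early against control, 1 of 63 tested members was called higher in the authors' deposited table, where 0.0256% of all tested were. This was the transcript at chromosome 1, 70984590 to 70986530, singled out after seeing its values, with 248 in the control, 680 early, 81.4 in the trough and 149 late. Late against control, 0 of 63 tested members were called in the authors' deposited table, which has the Cuffdiff layout, and 2 had an unadjusted p under 0.05, both lower. Of all tested transcripts 0.015% were called lower there. The share called higher is not given, so nothing is read from the absence of higher calls among members. Late against early, the authors' deposited table calls 9 of 57 tested members lower (15.8%) and 4 higher (7.02%). Of all tested transcripts 1.43% and 7.44% were called so. The rule set limits on both levels, and nothing is read from these shares. A p that misses the threshold does not show that late levels equalled the control. The median standard error of late against control was 0.67 over the members.

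The calls leave out many of the most abundant members. Between control and trough, 34 of the 114 are marked as not tested in the authors' deposited table, or 29.8%, against 3.55% of all transcripts with a control level of at least 5. Their median control level was 130, against 12.6 for the 80 tested. Of the 23 members with a control level of at least 100, 20 were not tested and the other 3 were all called. Each of the 34 carries a p-value of at most 0.00654 in the authors' deposited table. Over the 6 comparisons, 49 members were tested in each, 18 in none and 47 in some.

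The degree of return had no break at the limit. The conditions on control, early and trough levels were met by 255 transcripts, and the 114 are the 44.7% of them with a late level above 0.5 of the control. The other 141 stayed at or below it. The late ratio of the 255 had a median of 0.474, and the fullest interval of 0.1 was 0.4 to 0.5, with 60 transcripts, followed by 0.3 to 0.4 with 46 and 0.5 to 0.6 with 41. Counts then went down to 5 at 0.9 to 1, and 28 lay above the control. The median trough ratio was 0.251 in the 114 and 0.207 in the 141, and the median early ratio 1.14 and 1.05.

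**Figure D3:**
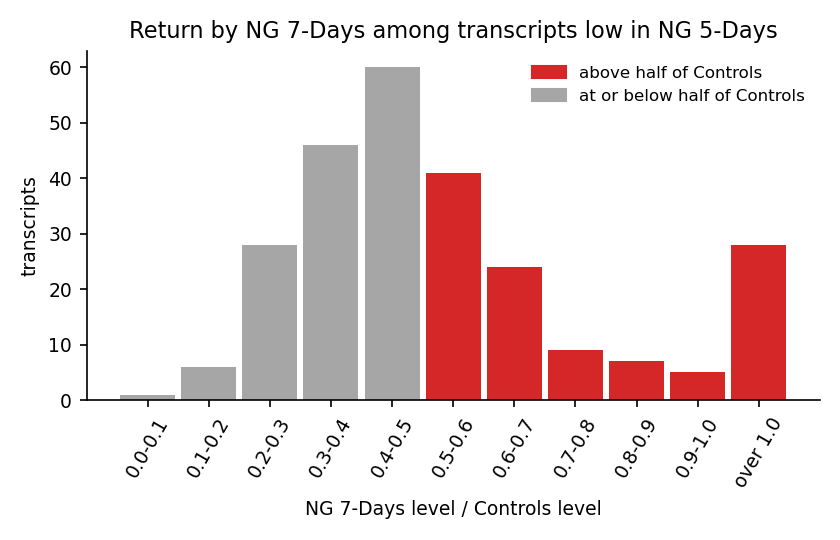
Number of transcripts (vertical axis) by NG 7-Days level as a ratio to Controls (horizontal axis) among the 255 that met the other conditions. Red bars hold the 114 above 0.5 and grey bars the 141 at or below it; counts are highest at 0.4 to 0.5, with 60, and pass the limit without a gap.

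Transcripts lay close on both sides of most limits. For the late level, the nearest members were at 0.503 of the control, at chromosome 3, 20471280 to 20471871, and chromosome 10, 51193558 to 51194514. The nearest outside were at 0.497, at chromosome 8, 39237043 to 39238308, and at 0.496, at chromosome 2, 25170230 to 25173228. For the trough, the nearest members were at 0.333, at chromosome 4, 53764889 to 53768272, and at 0.329, at chromosome 6, 54220706 to 54221769, and the nearest outside were both at 0.335, at chromosome 3, 7815625 to 7816769, and chromosome 12, 47221776 to 47223929. The lowest control levels of members were 5.07 and 5.10, both on chromosome 1, and the nearest outside were 4.85 and 4.77, on chromosomes 11 and 9. For the early level the distance was wider, with members at 0.286 and 0.290 of the control, on chromosomes 6 and 3, and the nearest outside at 0.211 and 0.186, on chromosomes 11 and 3.

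**Figure D4:**
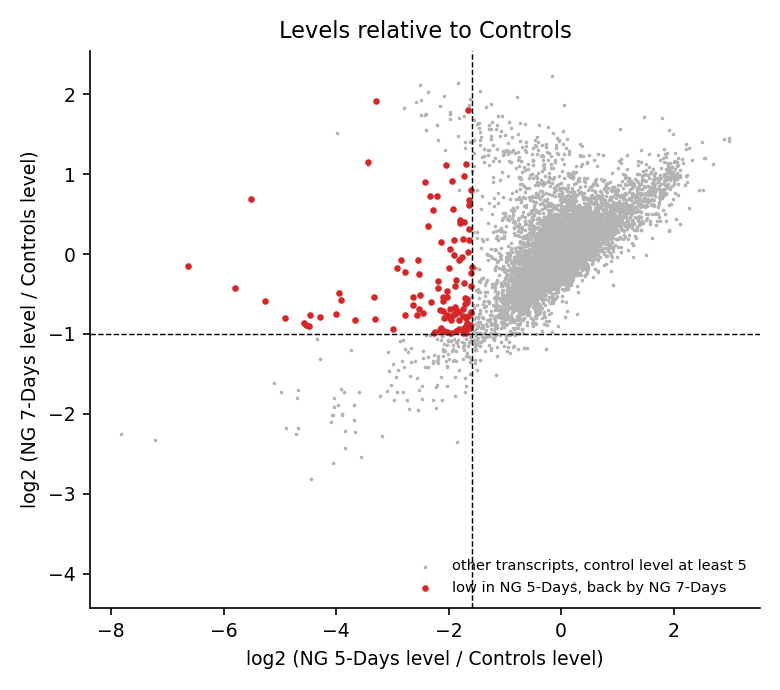
Log2 ratio of NG 7-Days to Controls (vertical axis) against log2 ratio of NG 5-Days to Controls (horizontal axis) for transcripts with a control level of at least 5, without 2 that are listed at 0 in either. Red points are 113 of the 114 chosen transcripts, dashed lines are the limits of the rule, and grey points in the same corner were at or below 0.25 of Controls in NG 1-Day.

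Position was not used by the rule, and members often lay near each other. Of the 114, 28 had another member within 50 kb, or 24.6%. Among the 11813 other transcripts with a control level of at least 5, 419 had a member that close, or 3.55%. Of the 141 that stayed low, 35 were within 50 kb of another of the 141, or 24.8%, nearly the share seen among the 114. Within 50 kb of 20 members, or 17.5%, lay a transcript of those 141. That share was not computed for other transcripts, so nothing is read from it. Whether neighbours are near-identical copies that share reads was not tested, and the shares are given without a test.

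The 28 formed 12 groups, 4 of them of 3 members and 8 of 2. On chromosome 2, 31947077 to 32010846, 3 members summed to 408 in the control, 381 early, 17.3 in the trough and 228 late. Besides the pair described above, this group holds a transcript at 32009422 to 32010846 with 30.5, 29.5, 1.38 and 18.0. Between them lies a transcript at 31973339 to 31975776 that had no trough, with 9.14 in the control and 8.75 in the trough condition.

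On chromosome 7, 45032536 to 45046838, all 3 members were high early. At 45032536 to 45033282 the levels were 55.8, 131, 17.4 and 32.1, at 45035040 to 45035563 they were 28.6, 72.5, 6.75 and 14.7, and at 45046318 to 45046838 they were 19.0, 48.8, 5.65 and 11.1. Each was 2.35 to 2.57 times the control early. From early to late the first fell by 2.03 on the log2 scale per the authors' deposited table (standard error 0.33, adjusted p = 1.01e-07), and the others were not tested there. A pair of transcripts among them with a control level of at least 5 just missed the limit, at 0.343 and 0.350 of the control in the trough.

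On chromosome 6, 42608401 to 42624728, the 3 members had control levels of 12.4, 20.4 and 9.65 and trough levels of 3.89, 3.30 and 2.44. All 3 fell from early to trough per the authors' deposited table, by 2.15 (standard error 0.35), 3.23 (standard error 0.59) and 2.29 (standard error 0.31) on the log2 scale. In the authors' deposited table these falls have adjusted p = 1.11e-07, 4.02e-06 and 3.26e-11, for levels that the rule had used. Between control and trough only the last was called in the authors' deposited table (adjusted p = 0.0239), and adjusting this comparison by itself ended that call (adjusted p = 0.126). A more abundant transcript between them, at 42612635 to 42613985, had 113 in the control, 41.5 in the trough and 69.8 late, outside the limit at a trough ratio of 0.366.

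On chromosome 8, 41060559 to 41066965, 3 members lay within 6.41 kb with no other listed transcript between them, and their courses differed. The first had 109 in the control, 72.4 early, 33.2 in the trough and 74.7 late. The second had 40.5, 18.7, 8.73 and 67.1, ending above its control, and the last 9.16, 11.1, 2.69 and 8.95. From trough to late the first and the last rose by 1.17 (standard error 0.26, adjusted p = 0.000252) and 1.73 (standard error 0.39, adjusted p = 0.000438) on the log2 scale per the authors' deposited table. The second was not tested there, and the rule required this rise of every member.

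The densest stretch of 300 kb was on chromosome 3, 20393266 to 20645195, and was found by looking at the values. It holds 14 listed transcripts, 6 of them with a control level of at least 5, and 5 of those 6 are members. The members summed to 2176 in the control, 2471 early, 566 in the trough and 1176 late, with trough ratios between 0.187 and 0.273. The remaining one, at 20611551 to 20612220, had 28.6 in the control, 70.3 early, 3.93 in the trough and 13.5 late, and its late ratio of 0.471 left it out. Near the abundant pair on the same chromosome, a transcript at 16201969 to 16202530 had 825, 1226, 111 and 301, again low in the trough but at 0.364 of the control late.

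**Figure D5:**
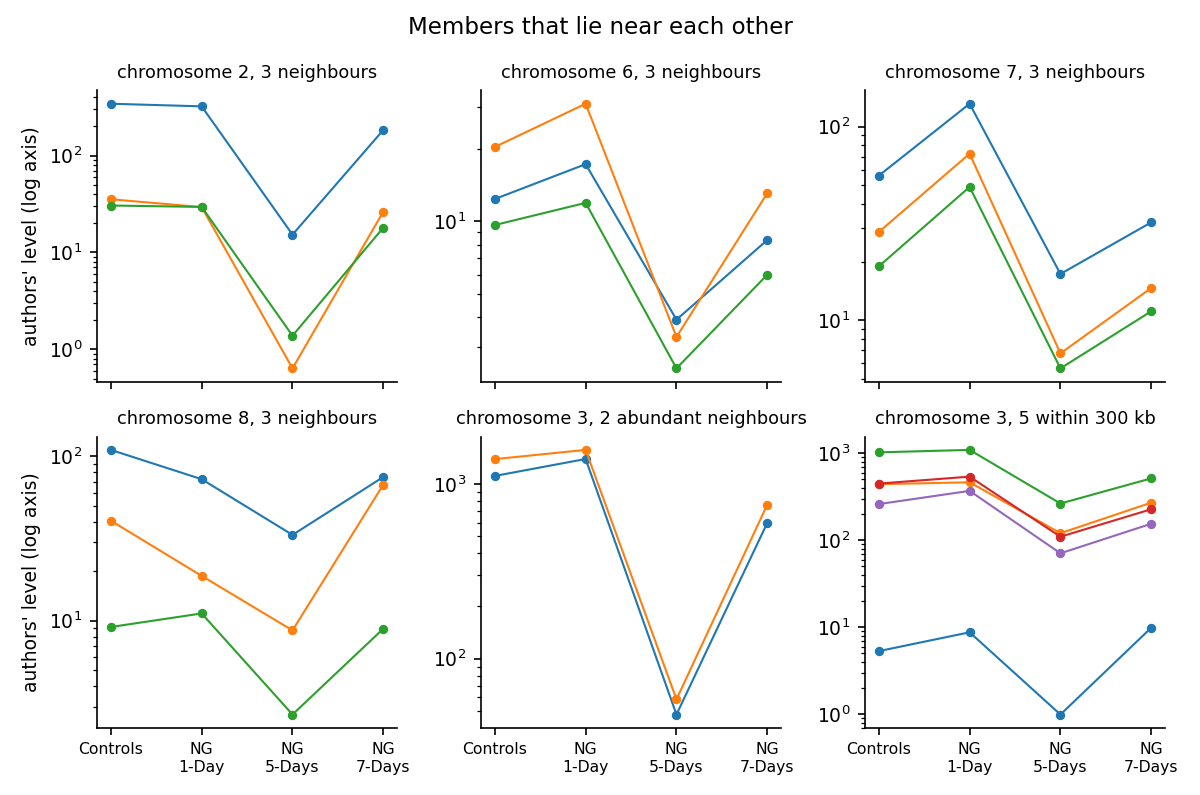
Level on a log axis, with a scale of its own in each panel, in the 4 conditions, with 1 line per member: the 4 groups of 3 neighbours, the pair of abundant neighbours on chromosome 3, and the 5 members of the densest stretch. The lines on chromosome 7 peak in NG 1-Day, at 48.8 to 131, and 1 line on chromosome 8 ends at 67.1, above its control of 40.5.

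Between 1 and 15 members were found per chromosome. Chromosomes 1 and 6 held 15 each and chromosome 5 held 1, which is 0.122% of its transcripts with a control level of at least 5, against 1.36% on chromosome 6. Loci of members were short, with a median length of 1.31 kb, introns included, against 4.14 kb for all transcripts with a control level of at least 5. Under 2 kb were 84 of the 114, or 73.7%, against 21.4%. In the 141 that stayed low the median was 1.61 kb and the share under 2 kb 60.3%. Median model errors of members were 0.55 in the control, 0.22 early, 0.23 in the trough and 0.34 late, against 0.44, 0.19, 0.11 and 0.26 for all transcripts with a control level of at least 5. They were larger for members in all 4 conditions, and the rule fixes a low level in the trough. The part of locus length and model error in the choice of members was not tested.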

How the data were processed

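RNA from tuber discs was sequenced, and the authors deposited 1 table in the layout of a Cuffdiff comparison file, per the file headers. For each pair of conditions it holds 1 level per condition, the log2 fold change, a statistic, a p-value and a q-value, all as deposited. No unit is named for the levels; the layout usually holds FPKM. Aligner, versions and genome build were not stated in the labels or the table. Depth per library is unknown, and without values per library no SD could be computed.

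Of the table, 5 transcripts marked as too abundant were dropped. Standard errors are the log2 fold change divided by the deposited statistic, and were solved per condition for 23099 transcripts. The deposited q-values equal a Benjamini-Hochberg adjustment over all 118862 tested lines to within 3.32e-06. The recovery of errors and an adjusted test were checked on simulated data with noise drawn from the same model errors. That check adjusted only control against NG 5-Days, so it does not cover the adjustment over all tested lines. The rule was checked only on simulated levels without noise. Members, lists and alternatives were chosen with earlier results of these data known. Named are the extremes of the set, the transcripts nearest each limit, and groups of 3 neighbours within 50 kb. Other transcripts given with values, such as those lying between members, were chosen after their values were seen. Python 3.11.15, pandas 2.3.3 and scipy 1.17.1 were used.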

Additional observations from a re-analysis of the deposited data

How the results depend on the processing

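The number of members depended on the limits: it was 380 with NG 5-Days at most 0.5 of the control, 35 at most 0.2, 57 with NG 7-Days above 0.667 of the control and 28 at or above the control. It lay between 76 and 169 under the other 6 alternatives tried; with a pseudocount of 1 it was 90, of which 85 were among the 114. Including the untested lines in the adjustment gave 77 members lower in NG 5-Days than in the control, 104 lower than in NG 1-Day, and 78 that were higher in NG 7-Days than in NG 5-Days, since more members then have a test. With the comparison adjusted alone, 27 members were lower in NG 5-Days than in the control. Members with another member nearby numbered 10 within 10 kb (8.77%, against 0.940% of other transcripts with a control level of at least 5) and 43 within 200 kb (37.7% against 11.4%). Within 50 kb they numbered 18 of the 76 members that have a control level of at least 10. Leaving out a replicate was not run, since the table has no value per library. No paired analysis was possible because the table gives 1 value per condition. Depth and spread between libraries, which are unknown here, limit every value.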

Other observations

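Some transcripts that lay near members were low in NG 5-Days as well. Of 419 other transcripts with a control level of at least 5 and a member within 50 kb, 47 were at most 0.5 of the control in NG 5-Days, or 11.2%, against 4.05% of 11394 farther away. Levels at least 2 times the control were at similar shares, 4.77% and 4.07%, and the median ratio was 0.951 near members and 0.978 elsewhere. Inside the 12 groups of neighbouring members lay 12 such transcripts, 5 of them at most 0.5 of the control in NG 5-Days. All 5 were higher in NG 7-Days than in NG 5-Days, but the share doing so among all transcripts that low was not computed. In the 141 that stayed low the median ratio to the control also went up, from 0.207 to 0.391. One of the 5 inside the groups, at chromosome 9, 45724620 to 45725645, had a control level of 20.1. Its later levels were 0.872 (NG 1-Day), 4.77 (NG 5-Days) and 79.0 (NG 7-Days). This transcript was picked with its values known. The limit on the NG 1-Day level kept it out of the set. These shares have no test.

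The mark for lines that were not tested followed the size of the change in NG 5-Days. Among transcripts with a control level of at least 5, the authors' deposited table left 1.16% untested where NG 5-Days was within 1.5-fold of the control, 11.6% where it was 0.333 to 0.667 of the control, and 43.9% where it was at most 0.333. On the higher side the shares were 4.12% from 1.5 to 3 times the control and 14.2% above that. With a control level of at least 100, 51 of 58 transcripts at most 0.333 of the control were untested, or 87.9%, against 13 of 852 within 1.5-fold. Counts of calls from this table therefore leave out many of the largest changes in abundant transcripts. The reason for the mark was not tested.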
